A study of Homo sapiens with 8 samples.

Results

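Genes that shorten the life of messenger RNA were followed in SKBR3 cells: the ZFP36 family (ZFP36, ZFP36L1, ZFP36L2), the ZC3H12 ribonucleases (ZC3H12A, ZC3H12C) and the BTG and TOB proteins (BTG1, BTG2, BTG3, TOB1, TOB2). Every probe set to which the platform annotation gives one of these 10 symbols was taken, whatever its values. Of the 10 genes, 8 have probe sets annotated with that gene alone, 23 in all, among 19775 genes and 54613 probe sets. The only ZC3H12A probe set is annotated also with the microRNA gene MIR6732, whose hairpin lies inside the ZC3H12A gene in RefSeq. It is given apart as ZC3H12A/MIR6732 and is left out of the counts. The annotation used here lists no probe set under BTG2, and no value is given for that gene.

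SKBR3 is a human breast cancer line with amplified HER2. Each of 8 Affymetrix arrays holds total RNA of 1 condition, taken 3 h into treatment after 4 h in medium with 10% charcoal-stripped serum. Cells received nothing, 0.1% ethanol (in the labels the vehicle for free hormone), 1e-06 M estradiol, 1e-06 M BSA (the carrier protein), 1e-06 M E2-BSA (estradiol coupled to it), 1e-05 M G15, or 1e-06 M E2-BSA together with either 1e-05 M ICI or 1e-05 M G15. G15 is an antagonist of the membrane estrogen receptor GPER, and ICI is named in the labels by this abbreviation alone. All arrays share the cell line, the serum change and the time. With 1 array per condition no difference below has a replicate error or a test.

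Most mRNA decay in the cytoplasm begins when the poly(A) tail is removed by the CCR4-NOT deadenylase, after which the cap is removed and the body is degraded. ZFP36 proteins bind AU-rich elements in the 3′ untranslated regions of cytokine and growth factor mRNAs and bring CCR4-NOT to them. ZC3H12A (regnase-1) is an endoribonuclease that cuts stem-loops in inflammatory mRNAs, and ZC3H12C is its paralog. BTG and TOB proteins bind the CAF1 nuclease of CCR4-NOT and are known as inhibitors of proliferation. Several of these genes are themselves known as early response genes, which are switched on by the stimuli whose transcripts they limit.

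The 250 bases before the RefSeq transcription start (GRCh38.p14) are shown for the 4 genes with a probe set at least 2-fold above untreated on the ethanol array, since these stood high together. For ZC3H12C and ZFP36L1, which have several starts, the most upstream one is shown. Capitals mark matches on either strand to a loose form of the NF-kB site (GGG and CC with any 5 bases between), and matches may overlap.
ZFP36, chr19:39406597-39406846, plus strand: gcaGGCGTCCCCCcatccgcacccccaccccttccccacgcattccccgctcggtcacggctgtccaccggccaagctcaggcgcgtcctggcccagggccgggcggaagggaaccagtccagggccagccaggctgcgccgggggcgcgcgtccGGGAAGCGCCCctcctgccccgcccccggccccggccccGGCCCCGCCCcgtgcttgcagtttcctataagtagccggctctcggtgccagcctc
ZC3H12A, chr1:37474330-37474579, plus strand: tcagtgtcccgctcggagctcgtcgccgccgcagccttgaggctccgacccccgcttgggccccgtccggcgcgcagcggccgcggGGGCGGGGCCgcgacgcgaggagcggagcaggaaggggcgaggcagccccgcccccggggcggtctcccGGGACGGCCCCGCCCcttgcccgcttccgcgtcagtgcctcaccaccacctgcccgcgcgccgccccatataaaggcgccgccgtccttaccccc
ZC3H12C, chr11:110093142-110093391, plus strand: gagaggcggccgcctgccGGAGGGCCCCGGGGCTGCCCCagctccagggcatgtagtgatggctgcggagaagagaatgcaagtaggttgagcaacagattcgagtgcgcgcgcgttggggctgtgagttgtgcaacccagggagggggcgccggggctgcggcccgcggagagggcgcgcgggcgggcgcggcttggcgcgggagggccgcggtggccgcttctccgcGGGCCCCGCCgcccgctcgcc
ZFP36L1, chr14:68796244-68796493, minus strand: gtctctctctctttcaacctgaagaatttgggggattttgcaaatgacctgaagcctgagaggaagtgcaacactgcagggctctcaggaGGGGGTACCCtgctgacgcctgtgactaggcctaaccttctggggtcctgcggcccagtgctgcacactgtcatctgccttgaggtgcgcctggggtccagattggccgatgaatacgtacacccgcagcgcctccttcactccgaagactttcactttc

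This loose motif was present in 54.4% of the 35116 promoter windows of the same length in RefSeq. Among the 12 windows of 9 of these genes it was present in 10. Its fixed bases are all G or C. Windows with a match held 49.2% to 80.4% G and C, and those without held 56.4% (BTG1) and 38.4% (a TOB1 start). The part of base composition in this count was not tested. The cAMP response element TGACGTCA was present in 1.65% of all windows and in 1 of the 12. That one lies before a second, more downstream start of ZFP36L1, from 52 to 45 bases upstream of it, and is shown in capitals with its flanks.
ZFP36L1 second start, chr14:68793451-68793478, minus strand: gtggaatgagTGACGTCAcagccgcgct
The AP-1 site TGANTCA (6.57% of all windows) and the CArG box (1.16%), searched on both strands, had no match in the 12 windows. Of the 10 genes, ZFP36L2 had no entry in the promoter table.

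The deposited values are centred for each probe set, so that a value says how far an array lies from the middle of the 8 for that probe set and nothing of the level of the transcript. Markers of SKBR3 or of other cells could therefore not be used to check the label, and fewer cells making a transcript cannot be told apart from less of it per cell. The values were read as log2, and a difference is the value of 1 array minus that of another. As a scale for the differences, BSA minus untreated, a pair without hormone or antagonist, had an SD of 0.166 over all genes, and ethanol minus untreated had 0.304. In the 3′ minus 5′ difference of the ACTB control probe sets the ethanol array was the highest, at 0.28, the E2-BSA plus G15 array the lowest, at -0.37, and E2-BSA next to it, at -0.22, with the others between -0.027 and 0.13. For GAPDH ethanol was at 0.022 and E2-BSA plus G15 at -0.043, within a range of -0.049 to 0.16. The part of these quality values in the results was not tested.

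ZFP36, also known as tristetraprolin, is the founding member of its family and is measured by 1 probe set. Its values were -0.17 in untreated cells, 0.062 with BSA, 2.28 with ethanol, 0.16 with estradiol, -0.0019 with E2-BSA, -0.070 with G15, 0.17 with E2-BSA plus ICI and 0 with E2-BSA plus G15. A single array, that of ethanol, stood high, and the other 7 lay within a span of 0.35. The ethanol array was 5.48-fold above the untreated array (log2 difference 2.46), and 22 of all genes lay further up in this comparison. Among the other 7 arrays the untreated one held the lowest ZFP36 value.

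ZFP36L1, a paralog known for roles in development and lymphocytes, has 4 probe sets, and they fall into 2 pairs. Probe set 211965_at stood at 0.092 in untreated cells, -0.23 with BSA, 1.58 with ethanol, 0.064 with estradiol, 0.25 with E2-BSA, -0.28 with G15, -0.14 with E2-BSA plus ICI and 0 with E2-BSA plus G15. Probe set 211962_s_at followed it, with 1.37 on the ethanol array, a low of -0.41 on the G15 array and a high of 0.11 with E2-BSA among the others. In both of these the ethanol array was the highest and the G15 array the lowest. The ethanol minus untreated differences were 1.49 and 1.37. Probe sets 213277_at and 213284_at did not share this, with differences of 0.13 and -0.0051 and spans of 0.49 and 0.50 over the 8 arrays. The mean of the 4 gave 0.75 for the gene, so whether ZFP36L1 passes 2-fold depends on the probe sets used.

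ZFP36L2, the third human member, did not stand high on the ethanol array. Its 4 probe sets gave ethanol minus untreated differences of -0.16, 0.17, 0.27 and -0.059, and the gene mean gave 0.055. Over the 8 arrays the gene mean spanned 0.15, less than the median span of 0.34 over all genes. Its widest probe set, 201367_s_at, ran from -0.40 with G15 to 0.48 with E2-BSA plus G15, while on that last array the other 3 stood at -0.10, -0.20 and 0.045. Within this family, then, ethanol minus untreated ranged from 0.055 to 2.46 by gene.

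**Figure D1:**
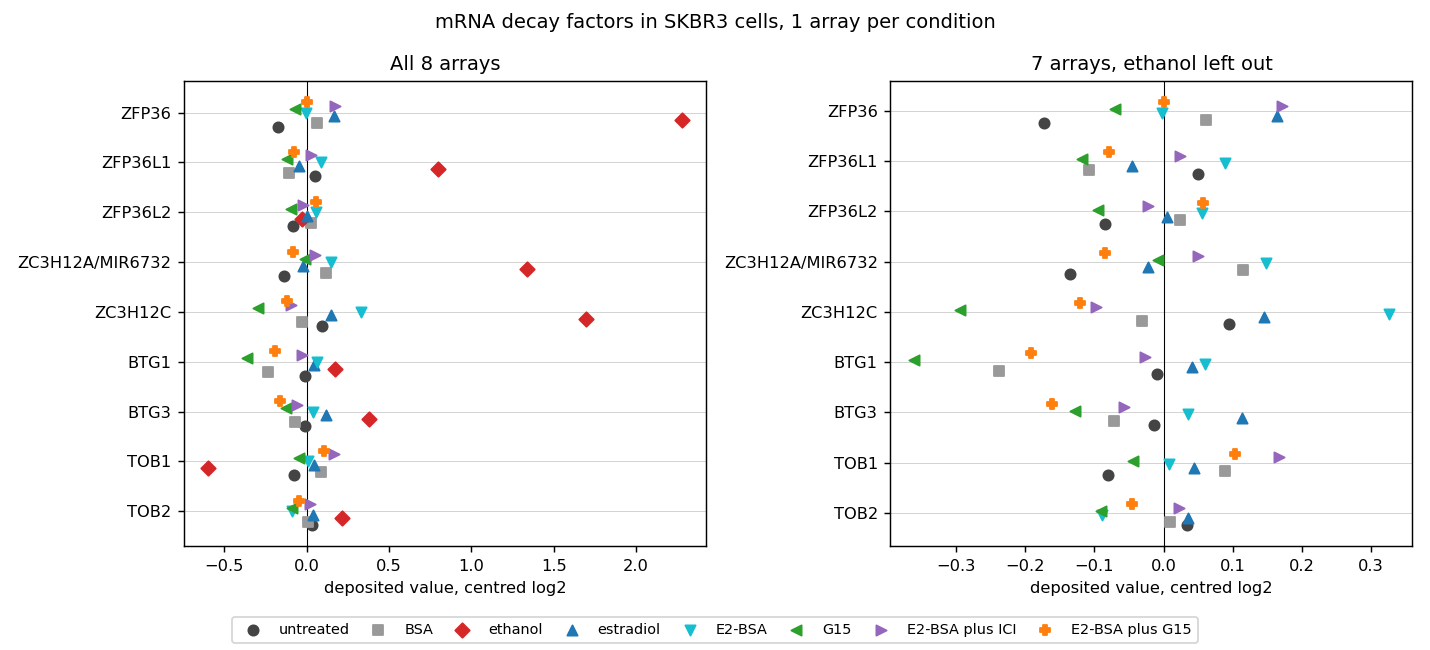
Deposited values (centred log2, x axis) of 8 genes and the shared ZC3H12A/MIR6732 probe set (y axis) on single arrays, each array with its own symbol, as the mean over a gene's probe sets. On the left the ethanol array stands at 2.28 for ZFP36, 1.70 for ZC3H12C and 1.34 for ZC3H12A/MIR6732 and at -0.60 for TOB1. On the right, without ethanol, all values lie between -0.36 and 0.33.

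The ZC3H12A/MIR6732 probe set stood at -0.14 in untreated cells, 0.12 with BSA, 1.34 with ethanol, -0.022 with estradiol, 0.15 with E2-BSA, -0.0087 with G15, 0.049 with E2-BSA plus ICI and -0.084 with E2-BSA plus G15. Again the ethanol array was high alone, and the untreated array was the lowest. Ethanol minus untreated was 1.47 (2.78-fold), and the other 7 arrays spanned 0.28.

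ZC3H12C, described as a regnase paralog that acts on inflammatory transcripts, had, among the 23 probe sets of the 8 genes, the largest ethanol minus untreated difference, and its probe sets disagreed the most in it. Probe set 231899_at stood at 0 in untreated cells, -0.13 with BSA, 3.30 with ethanol, 0.39 with estradiol, 0.66 with E2-BSA, -0.56 with G15, -0.31 with E2-BSA plus ICI and -0.19 with E2-BSA plus G15. After ethanol, the arrays of E2-BSA and estradiol alone were the highest, and all 3 arrays with G15 or ICI lay below the untreated and the BSA array. Probe set 1559763_at lay between -0.10 and 0.19 and stood at 0.086 with ethanol. The mean of both gave 1.60 for ethanol minus untreated (3.03-fold), where the first alone gave 3.30 and the second -0.10. Without the ethanol array the gene still spanned 0.62, and 4.55% of all genes had a 7-array span at least as wide. For the other 7 genes this share lay between 20.9% and 93.7%.

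BTG1, an antiproliferative cofactor of the deadenylase, varied mostly in other arrays than that of ethanol. Its 3 probe sets gave means of -0.010 in untreated cells, -0.24 with BSA, 0.17 with ethanol, 0.042 with estradiol, 0.060 with E2-BSA, -0.36 with G15, -0.027 with E2-BSA plus ICI and -0.19 with E2-BSA plus G15. The G15, BSA and E2-BSA plus G15 arrays were the lowest. Probe set 1559975_at carried most of this, at -0.68, -0.35 and -0.45 on those arrays in the same order, and 200920_s_at stood at -0.34, -0.34 and -0.24. The third, 200921_s_at, did not share the low values and stood at -0.063, -0.015 and 0.12.

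BTG3 has 4 probe sets. On 205548_s_at and 213134_x_at the ethanol array stood at 0.82 and 0.84, above all others, which lay between -0.28 and 0.054. On 1556213_a_at and 215425_at it stood at -0.020 and -0.13, and there the estradiol array was the highest, at 0.17 and 0.24. The ethanol minus untreated differences of the first pair were 0.82 and 0.80, past 1.5-fold (0.58 in log2) and under 2-fold, and the gene mean gave 0.39. The names of the higher pair end in _s_at or _x_at, the array's marks for probes shared by more than 1 transcript, and without that pair the gene differed by -0.028.

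TOB1, which links the deadenylase to the poly(A) binding protein and restrains cell growth, was the only one of the 8 genes that lay lower with ethanol than in untreated cells. Probe set 228834_at stood at -0.16 in untreated cells, 0.14 with BSA, -0.80 with ethanol, 0.16 with estradiol, 0 with E2-BSA, -0.026 with G15, 0.31 with E2-BSA plus ICI and 0.048 with E2-BSA plus G15. Probe set 202704_at stood at -0.40 with ethanol and between -0.071 and 0.16 on the others. In both the ethanol array was the lowest of the 8. The gene differed by -0.52 from untreated, and 243 of all genes lay further down.

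TOB2, its paralog, gave 0.18 for the same comparison from probe sets at 0.55, 0.29 and -0.31. On 221496_s_at and 222243_s_at the ethanol array was the highest, at 0.55 and 0.30. On 234720_s_at the E2-BSA array was the lowest, at -0.30, and G15 the highest, at 0.15. Over the 7 arrays without ethanol the gene spanned 0.13, the narrowest of the 8 genes.

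**Figure D2:**
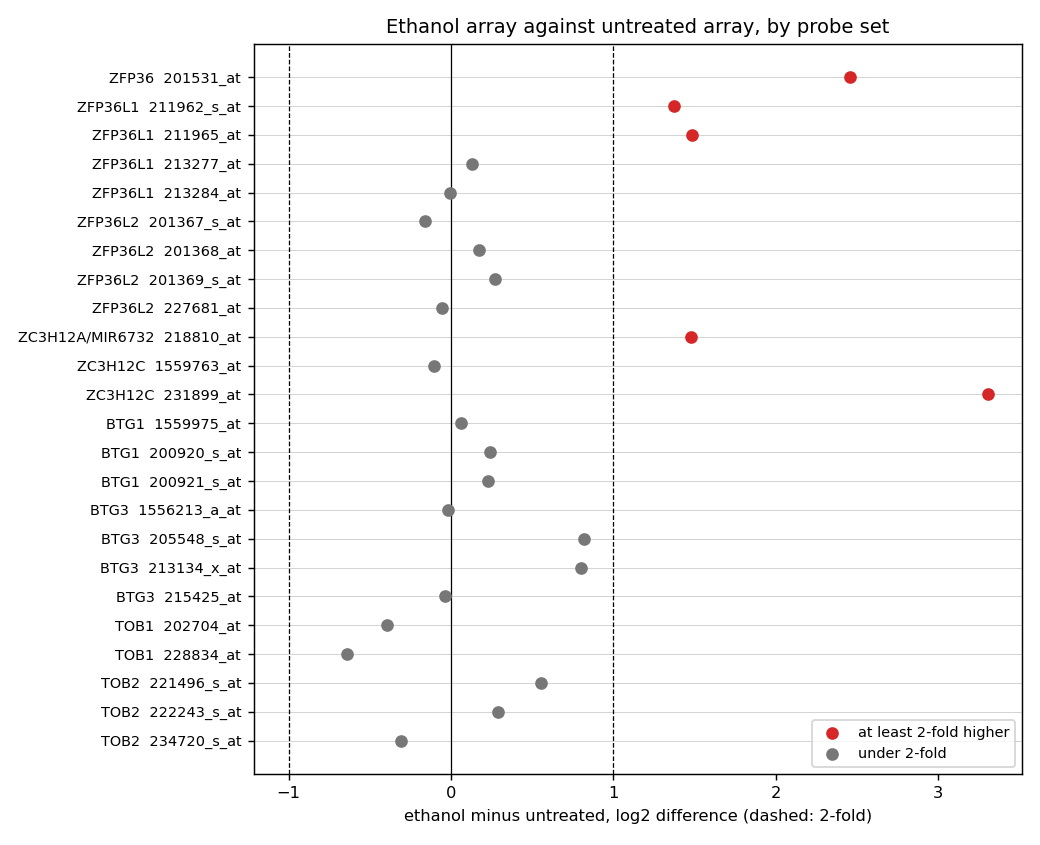
Ethanol minus untreated (log2 difference, x axis) for each of the 23 single-gene probe sets and the shared ZC3H12A/MIR6732 probe set (y axis, gene and probe set), 1 array against 1. Red points are at least 2-fold higher, and dashed lines mark 2-fold. ZFP36L1, ZC3H12C and BTG3 each have probe sets far to the right and others near 0.

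Of the 8 genes 2, ZFP36 and ZC3H12C, lay at least 2-fold above untreated on the ethanol array, where 0.87% of all genes did. None of the 8 was 2-fold lower, where 0.0152% of all genes were. At 1.5-fold 3 of the 8 were higher, with ZFP36L1, where 2.98% of all genes were, and none was lower, where 0.723% were. By probe set 4 of 23 were at least 2-fold higher, against 1.08% of all probe sets. The 8 genes had a median difference of 0.28 with 7 above 0, beside a median of -0.028 and 42.1% above 0 over all genes. The ethanol array held the highest of the 8 values in 11 of the 23 probe sets and the lowest in 4, beside 17.8% and 23.0% of all probe sets. Quantile normalization, which gives every array the same distribution, brought ZFP36 to 0.96 and ZC3H12C to 0.47, so that neither passed 2-fold. Each of these statements rests on the 1 ethanol array. The estradiol array, whose vehicle is ethanol per the labels, did not share the high values. Against untreated it differed by 0.34 for ZFP36, 0.051 for ZC3H12C and -0.095 for ZFP36L1. Whether ethanol itself raised these genes was not tested.

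The carrier protein gave smaller differences. On BSA minus untreated the 8 genes lay between -0.23 (BTG1) and 0.24 (ZFP36), with a median of -0.041 and 3 above 0, where 48.1% of all genes lay above 0. None reached 1.5-fold, where 0.354% of all genes were higher and 0.202% lower. ZFP36, BTG1 and TOB1 (0.17) were beyond the SD of 0.166. In size, 13.5%, 14.5% and 25.4% of all genes differed by at least as much, in the same order.

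Free estradiol, whose vehicle is ethanol per the labels, was set against both references, and these comparisons share arrays with the one above. Against the ethanol array ZFP36 differed by -2.12, ZC3H12C by -1.55, ZC3H12A/MIR6732 by -1.36, ZFP36L1 by -0.84 and TOB1 by 0.64. Of the 8 genes, 2 were at least 2-fold lower, where 0.865% of all genes were, and none was 2-fold higher, where 0.0101% were. At 1.5-fold 3 were lower, where 2.84% of all genes were, and TOB1 was higher, where 0.566% were. By probe set 4 of 23 were at least 2-fold lower, where 0.932% of all probe sets were. Against the untreated array none of the 8 reached 1.5-fold, where 0.086% of all genes were higher and 0.091% lower by that much. ZFP36 came closest, higher by 0.34 (1.26-fold). This difference was exceeded in size or equalled by 2.45% of all genes, and it was 0.10 with BSA in place of untreated, whose ZFP36 value was the lowest of all arrays. The other 7 genes lay between -0.095 and 0.13 against untreated, under the SD of 0.166 of the pair without hormone. With the BSA array as the reference BTG1 differed by 0.28, BTG3 by 0.19 and ZC3H12C by 0.18, and the other 5 genes lay between -0.045 and 0.10.

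**Figure D3:**
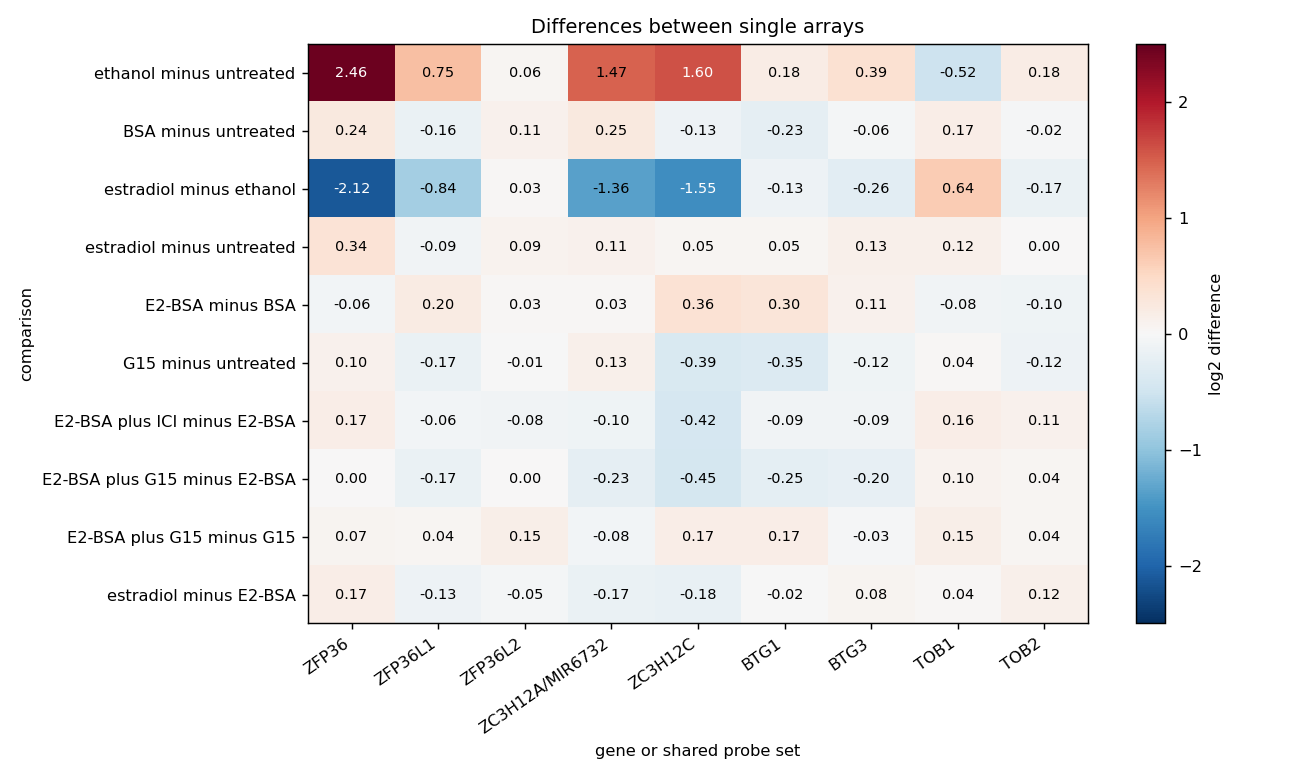
Log2 differences between single arrays for 10 comparisons (y axis) and 8 genes and the shared probe set (x axis), written in each cell and coloured from blue (lower) to red (higher). The rows with the ethanol array hold all values beyond 1 in either direction, and the other rows lie between -0.45 and 0.36.

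E2-BSA, a form of the hormone used with the aim of keeping it outside cells, was compared with its carrier. Whether free hormone was present was not tested. None of the 8 genes reached 1.5-fold, where 0.339% of all genes were higher and 0.662% lower by that much. ZC3H12C was 0.36 higher, BTG1 0.30 and ZFP36L1 0.20, and TOB2 (-0.098), TOB1 (-0.081) and ZFP36 (-0.064) were on the other side of 0. ZC3H12C rests on probe set 231899_at, at 0.79, which was the only one of 23 past 1.5-fold, against 1.4% of all probe sets. Against the untreated array it stood at 0.66, and the gene at 0.23. For BTG1 the reference mattered more: E2-BSA differed from untreated by 0.070, and the BSA array itself was low.

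Estradiol and E2-BSA, given at the same stated concentration and time, differ by the albumin on the latter and by the ethanol vehicle that the labels name for the former. Estradiol minus E2-BSA lay between -0.18 (ZC3H12C) and 0.17 (ZFP36) over the 8 genes, with a median of 0.0087 and 4 above 0. None reached 1.5-fold, where 0.273% of all genes were higher and 0.111% lower. The SD over all genes in this comparison was 0.163. With 1 array of each form these values neither show a difference nor show that the forms act alike.

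G15 alone was compared with untreated cells. The genes furthest down were ZC3H12C at -0.39 and BTG1 at -0.35, and the other 6 lay between -0.17 and 0.10. None reached 1.5-fold, where 0.167% of all genes were lower and 0.364% higher, and 1 of 23 probe sets, 1559975_at of BTG1 at -0.62, was lower by that much, where 0.692% of all probe sets were. The G15 array held the lowest value in 7 of the 23 probe sets, beside 10.8% of all probe sets. Against the BSA array all 8 genes lay below 0, from -0.26 (ZC3H12C) to -0.010 (ZFP36L1), where 53.6% of all genes lay above 0. Only ZC3H12C exceeded the SD of 0.166 there, and 9.27% of all genes differed by at least as much in size.

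Adding ICI or G15 to E2-BSA was set against E2-BSA alone, and these comparisons share that array. ZC3H12C was the lowest of the 8 in both, at -0.42 with ICI and -0.45 with G15, and its probe set 231899_at differed by -0.97 and -0.86. It was the only one of the 23 probe sets lower by 1.5-fold in each, where 1.85% (ICI) and 0.813% (G15) of all probe sets were. None of the 8 genes reached 1.5-fold: for ICI 0.566% of all genes were lower and 1.03% higher, and for G15 0.359% and 0.435%. Against the BSA array in place of E2-BSA, ZC3H12C differed by -0.066 with ICI and by -0.090 with G15. By that reference most of its difference lies in the high value of the E2-BSA array. The untreated array, at 0.095, lay between E2-BSA, at 0.33, and the arrays with ICI and G15 added, at -0.098 and -0.12. The reading thus depends on the reference. BTG1 differed by -0.087 with ICI and by -0.25 with G15, and ZFP36 by 0.17 and 0.0019.

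E2-BSA on top of G15, against G15 alone, gave 7 of 8 genes above 0 with a median of 0.11, where 42.8% of all genes lay above 0. The largest was ZC3H12C at 0.17, beside 0.36 for E2-BSA minus BSA without the antagonist, and BTG1 gave 0.17 beside 0.30. For ZFP36L1 the values were 0.039 and 0.20, and for ZFP36L2 0.15 and 0.033. None reached 1.5-fold, where 0.131% of all genes were higher and 0.359% lower. Probe set 201367_s_at of ZFP36L2, at 0.88, was the only one of 23 that was, where 0.778% of all probe sets were.

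**Figure D4:**
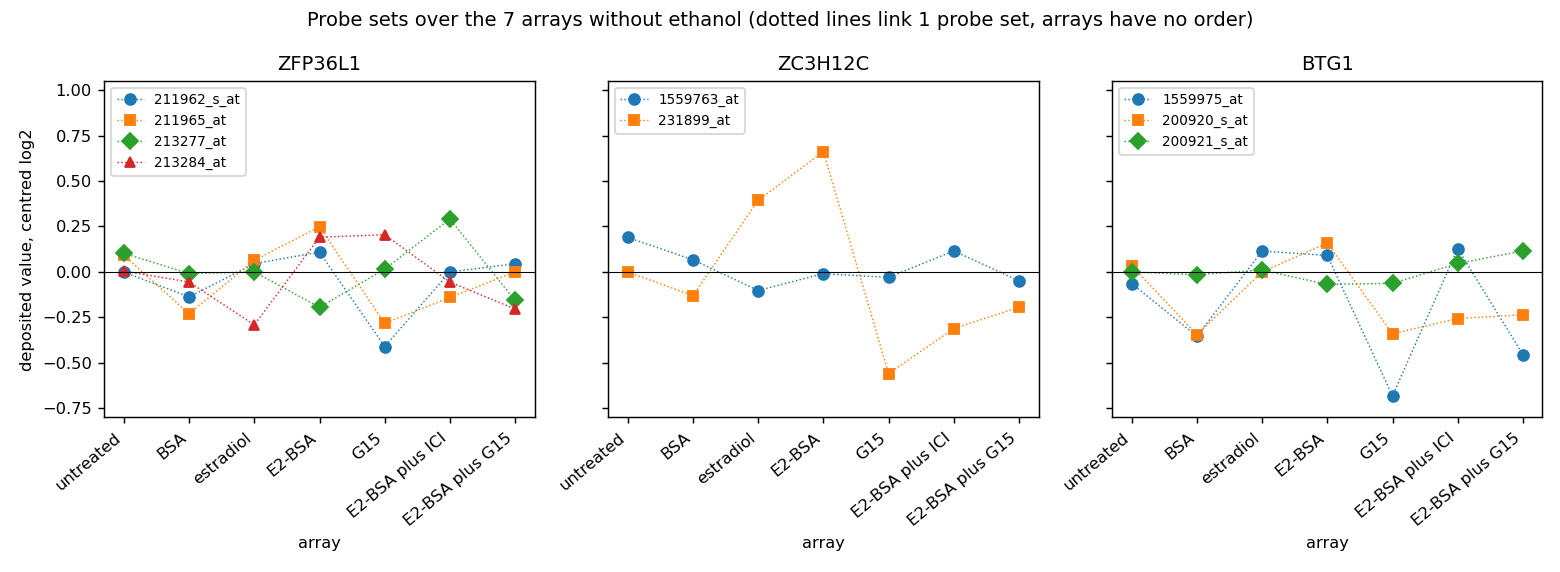
Deposited values (centred log2, y axis) of each probe set of ZFP36L1, ZC3H12C and BTG1 on the 7 arrays other than ethanol (x axis), with dotted lines linking the points of 1 probe set. Probe set 231899_at of ZC3H12C runs from -0.56 with G15 to 0.66 with E2-BSA, while 1559763_at stays between -0.10 and 0.19.

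ZFP36 and ZC3H12C were the 2 genes with a span of at least 1 over the 8 arrays, as had 1.86% of all genes, and the pattern of each was set against those of 366 other genes with such a span. ZFP36 was most like JUN, an AP-1 subunit (Pearson r = 0.996 over 8 arrays), IER5, an immediate early gene (0.996), and CD83, a surface protein of activated immune cells (0.995). Since the ethanol array dominates such values, they were also taken over the 7 arrays without it, where they were 0.89, 0.78 and 0.69. ZC3H12C was most like CCNL1, which encodes cyclin L1 (0.996), LTV1, a ribosome assembly factor (0.993), and MATN1-AS1, an antisense transcript (0.993), and without ethanol the values were 0.95, 0.93 and 0.93. The genes share their arrays, and these values describe 8 arrays only. They were picked by r over all 8 arrays, which include these 7, so the values without ethanol are no independent check.

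The machinery that these factors recruit was followed by gene mean. Of the 12 CCR4-NOT subunits and partners none reached 1.5-fold by gene mean in any of the 10 comparisons. For a list of this size that count says little: on ethanol minus untreated 2.98% of all genes were higher and 0.723% lower. Single probe sets did pass 1.5-fold. Among them was a CNOT2 probe set at 0.76 on ethanol minus untreated, where the others of that gene lay between -0.22 and 0.021. A CNOT3 probe set stood at -0.85 on estradiol minus E2-BSA, where the others stood at 0.045 and -0.091. On ethanol minus untreated the gene means ran from -0.085 (CNOT6, a catalytic subunit) to 0.16 (TNKS1BP1). On E2-BSA minus BSA 11 of 12 lay above 0 with a median of 0.18, where 49.3% of all genes did, with CNOT10 highest at 0.28 and TNKS1BP1 lowest at -0.21. On E2-BSA minus untreated 10 of 12 did, with a median of 0.080. On estradiol minus E2-BSA all 12 lay below 0, from -0.30 (CNOT3) to -0.0027 (CNOT2), with a median of -0.11, where 52.6% of all genes did. These comparisons share the E2-BSA array. The SD over all genes was 0.200 on E2-BSA minus BSA, 0.166 on E2-BSA minus untreated and 0.163 on estradiol minus E2-BSA. Each list median lay within it, but that SD does not measure a shift shared by a list, which was not tested.

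Among the 12 genes of decapping and 5′ to 3′ decay, the decapping activator DCP1A was 0.63 higher with ethanol, the exonuclease XRN1 0.41 and the helicase DDX6 0.35, and the list median was 0.099. By gene mean DCP1A was the only one past 1.5-fold, where 2.98% of all genes were, and both of its probe sets agreed, at 0.62 and 0.63. Those of DDX6 stood at 0.42, 0.32 and 0.31. The XRN1 probe sets disagreed, at 1.07, 0.65, -0.066 and -0.0082, so its value depends on the probe sets used. A list of the PAN2-PAN3 and PARN deadenylases, poly(A) binding proteins and NOCT, which encodes the circadian protein nocturnin, had 7 measured genes. NOCT was higher by 1.31 with ethanol and the rest lay between -0.19 and 0.080. The NOCT probe sets stood at 1.97 and 0.65. On estradiol minus ethanol NOCT differed by -1.24, and on estradiol minus untreated by 0.072. In the latter its probe sets disagreed, at 0.49 and -0.35.

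Another list holds other RNA-binding proteins and paralogs, most of them binders of AU-rich elements or stem-loops. It also holds BTG4, a BTG family adaptor of CCR4-NOT, and PUM2, which binds Pumilio elements. None of its 13 measured genes reached 1.5-fold on ethanol minus untreated, where 2.98% of all genes were higher and 0.723% lower. For a list of this size that count says little. The 13 measured genes ran from -0.42 (BTG4) to 0.36 (RC3H1, roquin-1) on ethanol minus untreated, with a median of -0.0041, and ELAVL1, the stabilizing protein HuR, was the median gene. The paralogs ZC3H12D and ZC3H12B stood at 0.31 and -0.085. The 7 measured kinases and phosphatases described as acting on ZFP36 protein ran from -0.18 (MAPKAPK3) to 0.21 (PPP2CA), with MAPKAPK2 at 0.15.

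Many transcripts commonly described as targets of ZFP36 or ZC3H12A were high on the same array as ZFP36, ZC3H12C and ZC3H12A/MIR6732. Of 23 measured, 13 were at least 2-fold higher on ethanol minus untreated, where 0.87% of all genes were, and none was lower by that much, where 0.0152% were. The list median was 1.37. CCL20 (7.73), CXCL8 (7.33), CXCL1 (6.26), TNF (5.20) and TNFAIP3 (5.17) led. IL1A (-0.27), IL1B (-0.13) and CCND1 (-0.041) lay below 0. Since inflammatory genes were known to be high on this array when the list was written, the count is no independent evidence. Against untreated, estradiol gave a median of 0.10, with the chemokine CCL2 at 0.83 and the cell-cycle inhibitor CDKN1A at -0.65, and E2-BSA minus BSA gave a median of 0.0086, with TNFAIP3 at 0.45. With G15 added to E2-BSA 17 of the 23 lay below 0 against E2-BSA, at a median of -0.14, where 51.7% of all genes did. CDKN1A was furthest down, at -0.64, and CCL2 stood at -0.57. Against G15 alone 13 of 23 lay below 0, close to the 54.9% of all genes that did, at a median of -0.036.

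**Figure D5:**
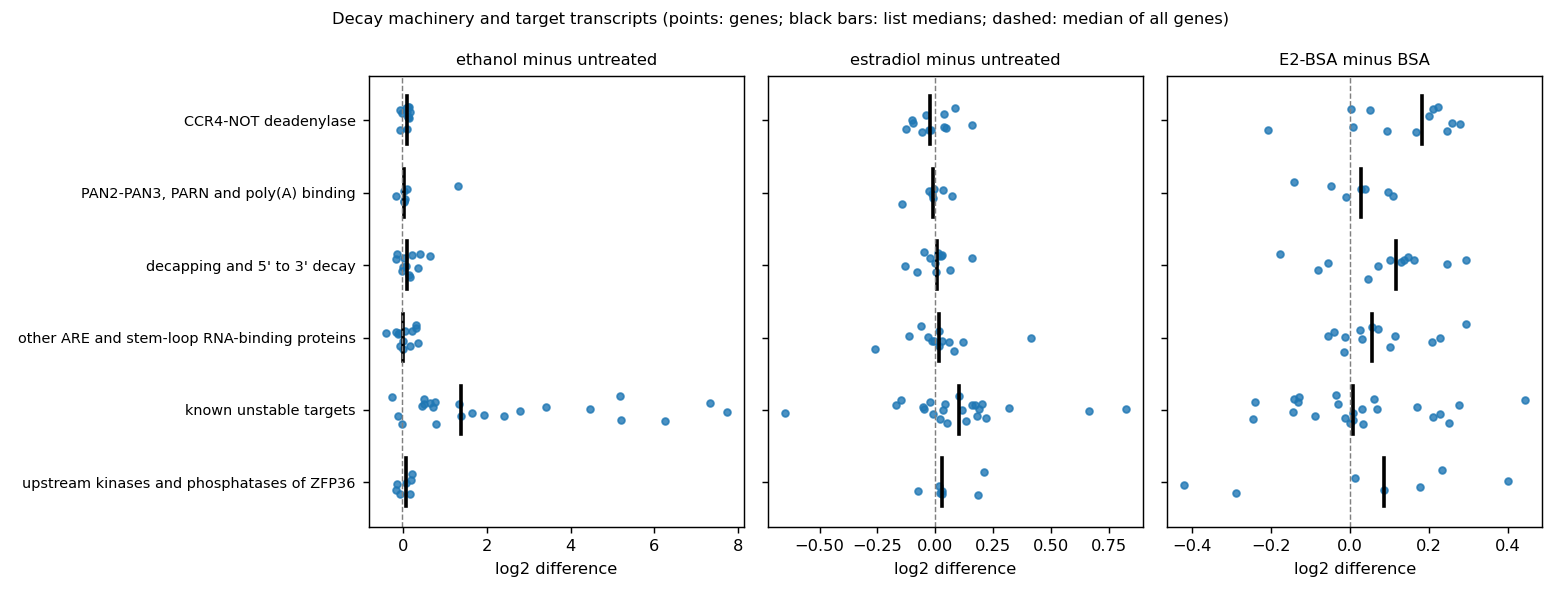
Log2 differences (x axis, a scale of its own in each panel) of single genes (points) in 6 lists of decay machinery, kinases and target transcripts (y axis) for ethanol minus untreated, estradiol minus untreated and E2-BSA minus BSA. Black bars are list medians and the dashed line is the median of all genes. The target transcripts reach 7.73 in the first panel, where NOCT at 1.31 is the only other point past 1.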

How the data were processed

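Total RNA was hybridized to Affymetrix arrays with 54675 probe sets, per the labels' protocols. Probe summarization and normalization are steps not given in the sources used here. Values as deposited by the authors ran from -2.27 to 7.85 and were read as log2. In every probe set at most 4 of 8 arrays lie above 0 and at most 4 below, as after centring on a median. The log base is not stated, and with natural logs every fold would be larger.

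Each array took its condition from its title. Control probe sets (62) were left out, and 41091 probe sets with 1 annotated gene gave 19775 genes as means of their probe sets. Of these probe sets 41037 matched a current record in RefSeq (GRCh38.p14), and 1801 listed several genes. Levels are removed, so no filter on low values was possible. Differences of single arrays were computed with pandas 2.3.3 on Python 3.11.15, with thresholds of 2-fold and 1.5-fold and no test. The code was tested on simulated data.

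The members and lists were chosen with earlier results of these data known. Named are all members, list genes at 2-fold (up to 5 per list and comparison), the lowest and highest of a list, and, for members spanning at least 1, the 3 genes with the highest Pearson r. Other list genes named were chosen after their values were seen. Alternatives were other scalings, probe set rules, references, thresholds and log base.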

Additional observations from a re-analysis of the deposited data

How the results depend on the processing

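There were 160 values that answer a comparison, as counts of genes at 2-fold and medians over the 8 genes. Of these, 149 stayed within the limits used (1.5 times for a count, 0.166 for a median). The other 11 moved, all but 1 of them in the comparisons with the ethanol array. Many values had little room to move. Without the ethanol array the counts at 2-fold were 0, and median centring shifts all genes of an array alike. The share that stayed is therefore no measure of precision. Under quantile normalization the count at 2-fold fell from 2 to 0 for ethanol minus untreated and for estradiol minus ethanol, and the median of the latter went from -0.22 to -0.053. This method gives the ethanol array, which alone has a long upper tail, the mean distribution of all 8. With the probe set of largest SD for each gene, the median was 0.69 for ethanol minus untreated, -0.68 for estradiol minus ethanol and -0.33 for G15 minus untreated (-0.12 with means). Without probe sets ending in _s_at or _x_at, which left 7 genes, the first 2 medians were 0.064 and 0.013. At 1.5-fold the count for estradiol minus ethanol was 4. With the BSA array in place of ethanol it was 0, the median 0.083, and all 8 genes changed sign, among them ZFP36 (0.10), ZC3H12C (0.18), ZFP36L1 (0.062), BTG1 (0.28), BTG3 (0.19) and TOB1 (-0.045). The causes were not tested beyond these constructions.

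Of 510 values for single genes, 431 stayed within 0.166 of the reported one, and 2 of the other 79, those given above, were past 2-fold and changed sign. With smaller values included 49 of the 510 changed sign, among them BTG3 on ethanol minus untreated (0.39, and -0.028 without probe sets ending in _s_at or _x_at). Median centring and the median of probe sets moved none by 0.166 or more. Counting ZC3H12A/MIR6732 as a gene was an alternative chosen after seeing the data, like the spans and correlations without ethanol. It moved no count or median past the limits used. Within them, the ethanol minus untreated count at 2-fold went from 2 of 8 to 3 of 9. The median of that comparison went from 0.28 to 0.39. The number of arrays, 1 per condition, limits the precision. No paired analysis was possible because each condition has a single array and no value comes from a test.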
